A study of Mus musculus with 7 samples.

Results

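Chemokines are small secreted proteins that direct the movement of white blood cells, and 10 of their genes were followed here in the healing shoulder joint: Ccl2, Ccl3, Ccl4, Ccl5, Ccl6, Ccl7, Ccl8, Ccl9, Cxcl12 and Cxcl14. They were chosen by name from the 56854 gene identifiers listed in all files. The 7 libraries were made from poly(A) RNA of whole mouse shoulder joints, 2 weeks after the left supraspinatus tendon, part of the rotator cuff, had been surgically repaired. The groups were wild type (n = 3) and Tnc-/- (n = 4), mice without Tenascin C, a matrix glycoprotein of tendon and wounds; both groups had the repair, and no unoperated joint was analysed here. The design text counts 7 operated mice for the 7 libraries, 3 and 4 by genotype. Strain, sex and age are not given in the sources used here. The question was whether these signals differed between repaired joints with and without Tenascin C.

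The CC chemokines of the set act mainly on monocytes, macrophages, T cells and granulocytes through receptors that include Ccr1, Ccr2, Ccr3 and Ccr8. Most are made on demand in inflamed tissue under control of the transcription factor NF-kB. Cxcl12 is different: stromal cells make it constantly, and through its receptor Cxcr4 it holds blood-forming cells in the bone marrow. Cxcl14 is likewise made without inflammation, by epithelia and fibroblasts.

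The values have 3 limits that bear on every gene below. The wild-type and Tnc-/- files list different identifiers, so how the reads were counted and the genotype cannot be told apart. The wild-type libraries were also unlike one another. The 1775 genes of smell and pheromone receptors, which a joint is not known to use, reached 85.6, 1301 and 920 CPM together in wild-type libraries 1, 2 and 3 (CPM is the count per 1 M counts, with library totals adjusted by TMM), against 36.0 to 43.4 CPM in the 4 Tnc-/- libraries. Lastly, fewer cells of a type and less RNA per cell cannot be told apart in a whole joint. Gene counts per library were 13.5 to 18.5 M in wild type and 19.3 to 28.2 M in Tnc-/-. Reads on Tnc remained in Tnc-/-: it lay at 292 to 437 CPM in wild type and at 33.4 to 55.0 CPM in Tnc-/- (log2 fold change -3.08, SE 0.21; edgeR, adjusted p = 2.8e-04). Marker lists of muscle, connective tissue and cartilage were well above 0 in all 7 libraries: the summed muscle list was never below 18420 CPM, the fibroblast and tendon list never below 31140 CPM, and the cartilage list never below 1220 CPM.

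RefSeq sequences (GRCm38.p6) of 250 bases before to 50 bases after the gene start were found for 6 of the 10 genes. The 4 most abundant of these are shown, since the CXC and CC members among them differ in base composition. CG dinucleotides and the motif TATAAA on either strand are in capitals; overlapping matches run together.
Cxcl12, chr6:117168285-117168584, plus strand: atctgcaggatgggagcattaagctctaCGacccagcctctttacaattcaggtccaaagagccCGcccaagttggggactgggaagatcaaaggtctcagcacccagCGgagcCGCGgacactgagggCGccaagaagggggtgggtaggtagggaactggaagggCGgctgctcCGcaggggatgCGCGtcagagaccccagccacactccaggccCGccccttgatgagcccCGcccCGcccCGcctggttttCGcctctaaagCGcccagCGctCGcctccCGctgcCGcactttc
Cxcl14, chr13:56296502-56296801, minus strand: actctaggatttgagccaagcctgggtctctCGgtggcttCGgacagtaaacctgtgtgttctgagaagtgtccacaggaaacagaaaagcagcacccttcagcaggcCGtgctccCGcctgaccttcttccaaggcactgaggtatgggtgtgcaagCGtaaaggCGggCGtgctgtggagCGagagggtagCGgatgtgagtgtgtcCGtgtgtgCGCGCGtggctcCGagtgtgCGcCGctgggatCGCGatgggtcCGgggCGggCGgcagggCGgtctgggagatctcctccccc
Ccl9, chr11:83578587-83578886, minus strand: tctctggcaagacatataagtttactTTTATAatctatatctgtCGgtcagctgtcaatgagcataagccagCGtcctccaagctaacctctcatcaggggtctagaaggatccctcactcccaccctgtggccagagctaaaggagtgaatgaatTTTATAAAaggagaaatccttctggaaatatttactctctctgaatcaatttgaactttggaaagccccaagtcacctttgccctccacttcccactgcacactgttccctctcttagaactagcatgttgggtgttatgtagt
Ccl8, chr11:82114935-82115234, plus strand: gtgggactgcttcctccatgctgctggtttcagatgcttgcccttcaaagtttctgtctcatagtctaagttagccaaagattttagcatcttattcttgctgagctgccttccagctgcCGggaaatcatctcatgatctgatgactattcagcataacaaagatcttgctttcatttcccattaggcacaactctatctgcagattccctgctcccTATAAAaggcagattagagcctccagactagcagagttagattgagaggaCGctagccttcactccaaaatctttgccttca
Cxcl12 held 20 CG dinucleotides and Cxcl14 22, more than 73.5 and 76.9% of 32851 promoter windows of the same length. Ccl8 and Ccl9 held 2 each, more than 14.1% of windows, as did Ccl6, and Ccl3 held 3. TATAAA occurred once in Ccl8, with its first base at -32 from the gene start, and at 3 places in Ccl9, at -224, -94 and -92, the last pair overlapping; it was not in these windows of Ccl3, Ccl6, Cxcl12 or Cxcl14. Of all windows, 13.6% held it. The motif GGGCGG, searched on both strands, occurred 5 times in Cxcl12 and 3 times in Cxcl14, was not in the windows of the other 4 genes, and was present in 35.7% of all windows.

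Of the 10 genes, 8 could be compared between the genotypes, because Ccl6 and Ccl2 sit inside other genes. Ccl6 (ENSMUSG00000018927), a myeloid chemokine that acts through Ccr1, was listed at 0 counts in all 7 libraries. In GENCODE M21 it lies wholly within the span of E230016K23Rik, a gene on the opposite strand, with no shared exon bases. Ccl2 (ENSMUSG00000035385), the main monocyte attractant of the family and the ligand of Ccr2, was listed at 0 counts in all 3 wild-type libraries. It lies within the span of Gm17268, again without shared exon bases, and Gm17268 is listed in the wild-type files and not in the Tnc-/- files. The other 8 genes overlapped no gene of that annotation.

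The same held across the genome. Among protein-coding genes that lie inside the span of a gene of all files without sharing an exon, 637 of 643 (99.1%) had 0 counts in every wild-type library and 640 (99.5%) in every Tnc-/- library. Among 20729 protein-coding genes that were not nested these shares were 14.9 and 19.2%. All 7 genes nested in a gene of the wild-type files alone, 2 of them without exon overlap, had 0 counts in every wild-type library, and none of them had 0 in every Tnc-/- library. The zeros of Ccl6, and those of Ccl2 in wild type, therefore cannot be read as absence of the transcript. Reads assigned to more than 1 gene made up 11.4 to 11.6% of all reads listed for the Tnc-/- libraries.

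**Figure D1:**
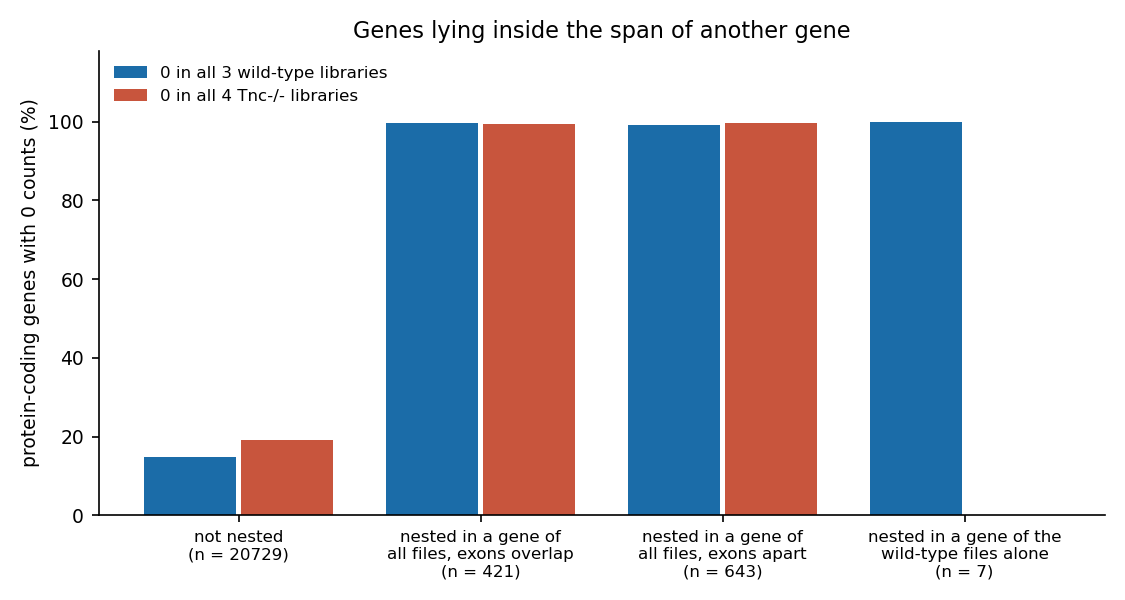
Share of protein-coding genes with 0 counts in all libraries of a genotype (vertical axis, percent; blue bars wild type, red bars Tnc-/-), for genes that are not nested and for genes inside the span of another gene, with the number of genes under each pair of bars. Nested genes were at 99.1% or more in both genotypes, except the 7 inside a gene listed for wild type alone, of which none was at 0 in every Tnc-/- library.

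Ccl2 had 95, 159, 246 and 124 counts in Tnc-/- libraries 1 to 4, or 3.51, 8.86, 13.8 and 6.49 CPM, a mean of 8.16 ± 4.33 CPM (SD, n = 4). Library 3 was the highest and library 1 the lowest. Its edgeR call (adjusted p = 0.0067) and its lack of overlap with wild type rest on the zeros described above, so no fold is given for it.

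In the remaining 8 genes no difference between the genotypes passed the threshold. Of the 10 members 9 passed the filter on low counts, and 1 was called higher in Tnc-/- and 0 lower (edgeR, adjusted p under 0.05); the 1 was Ccl2. Of all 17791 genes tested, 29.0% were called, 10.3% higher and 18.7% lower. An unadjusted p under 0.05 was reached by 2 members, Ccl2 and Cxcl12, against 42.3% of tested genes. DESeq2 and limma voom called 1 member each, against 35.1 and 5.47% of all genes, and with both it was Ccl2. Every Tnc-/- library lay above every wild-type library for Ccl2 alone, against 17.7% of tested genes, and no member lay wholly below, against 17.4%. Leaving out Ccl2, the log2 fold change was above 0 in 5 of the 8 comparable genes (49.9% of all genes were), with a median of 0.098, beside -9.0e-04 for all tested genes. Without wild-type library 1, 4 members were called, all higher: Ccl2, whose call rests on its zeros, and, of the comparable genes, Ccl5, Ccl9 and Cxcl12. That fit tested 21989 genes, since the filter then let in more, and called 64.2% of them (24.3% higher, 39.9% lower); of the 17791 genes tested with all libraries it called 57.3% (29.6% higher, 27.6% lower). With wild-type library 1 alone, 1 was called, higher, against 4.45% (2.53% higher, 1.92% lower). With the summed smell receptor level as a second term, the background covariate, 0 were called higher and 1 lower, against 2.24% of all genes (1.07% higher, 1.17% lower). The smell receptor sum was higher in every wild-type library than in every Tnc-/- library, so the covariate and the genotype are partly confounded. A call lost in that fit therefore does not show which of them it follows.

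**Figure D2:**
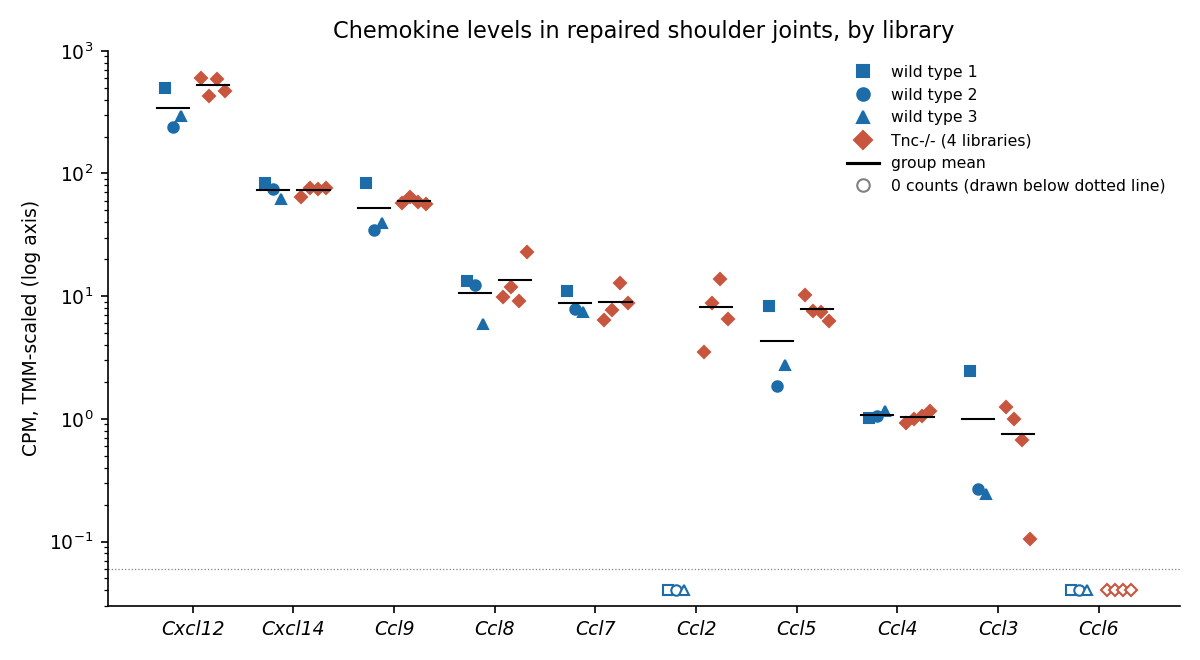
Level of each chemokine gene in each library (vertical axis, TMM-scaled CPM, log axis; genes along the horizontal axis). Blue symbols are the 3 wild-type libraries, red diamonds the 4 Tnc-/- libraries and black bars the group means; open symbols under the dotted line had 0 counts. Cxcl12 lay at 239 to 603 CPM, above every other gene, and wild-type library 1 was the highest wild-type library in all of the 8 comparable genes except Ccl4.

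Cxcl12 (ENSMUSG00000061353), the stromal ligand of Cxcr4, had the highest CPM of the 10 genes in every library. It had 494, 239 and 291 CPM in wild-type libraries 1 to 3, against 603, 429, 589 and 472 CPM in Tnc-/- libraries 1 to 4. Wild-type library 1 lay within the range of Tnc-/- and wild-type libraries 2 and 3 lay below it. The means were 341 ± 135 CPM (SD, n = 3) and 523 ± 86.0 CPM (SD, n = 4). Tnc-/- exceeded wild type by a log2 fold change of 0.62 with a 95% interval of 0.014 to 1.22 (SE 0.26; edgeR, adjusted p = 0.111), which missed the threshold. Cxcl12 made up 64.3 to 70.9% of the summed CPM of the 10 genes in wild type and 70.7 to 79.6% in Tnc-/-. These shares are not adjusted for length, and Cxcl12 has 8.18 kb of exon, against 0.511 to 3.04 kb in the others. The sums also hold the zeros of Ccl6 and, in wild type, those of Ccl2.

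How Cxcl12 compared between genotypes depended on which wild-type libraries were used. Without wild-type library 1 the log2 fold change was 1.07 (edgeR, adjusted p = 2.6e-04). With wild-type library 1 alone it was 0.077 (adjusted p = 0.870), where the lone library is assumed to vary like Tnc-/-. With the background covariate it was -0.20 (adjusted p = 0.767). The summed fibroblast and tendon markers, from cells that make Cxcl12, ran from 31140 to 50160 CPM in wild type and from 33230 to 57850 CPM in Tnc-/-. Most of this sum was the collagens Col1a1, Col1a2 and Col3a1. Lum, a proteoglycan of connective tissue, had 1634, 1084 and 1537 CPM in wild type and 803 to 1117 CPM in Tnc-/-, with overlap (-0.63; edgeR, adjusted p = 0.0482). It was the 1 marker of the list called, beside 18.7% of all genes called lower. Limma voom called 0 of the list, beside 5.47%, and edgeR 0 with the background covariate, beside 2.24%. Without wild-type library 1, 0 were called, beside 57.3% of the 17791 genes. Dcn, a proteoglycan of the same kind, had 2213 to 3077 CPM in wild type and 1881 to 2115 CPM in Tnc-/- (-0.44; adjusted p = 0.102). Of the 8 markers 7 were tested, and Scx, a defining factor of tendon cells, was at 0 in all libraries; like Ccl6 it lies inside another gene, so its zeros cannot be read as absence. The 5 erythroid markers summed to 8418, 4334 and 5472 CPM in the wild-type libraries against 12280 to 24390 CPM in Tnc-/-, above every wild-type library. Of the 4 tested, edgeR called 3 higher, beside 10.3% of all genes. Limma voom called 1, beside 5.47%, and edgeR 0 with the background covariate, beside 2.24%. Without wild-type library 1 all 4 were called higher, beside 29.6% of the 17791 genes. The 5 endothelial markers summed to 541, 492 and 485 CPM in the wild-type libraries against 384 to 478 CPM in Tnc-/-, below every wild-type library. Of these, edgeR called 2 lower, beside 18.7% of all genes, and 0 with the background covariate. The 4 osteoblast markers summed to 676 to 958 CPM in wild type and 787 to 1002 CPM in Tnc-/-, with 1 called higher, beside 10.3% of all genes. The part of any of these cells in the Cxcl12 values was not tested.

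Cxcl14 (ENSMUSG00000021508), the other CXC member, had 84.3, 74.7 and 62.1 CPM in wild-type libraries 1 to 3, against 64.9, 75.7, 75.0 and 76.7 CPM in Tnc-/- libraries 1 to 4. The wild-type libraries lay above, within and below the range of Tnc-/-, so the groups overlapped. The log2 fold change was -0.012 with a 95% interval of -0.32 to 0.30 (edgeR, adjusted p = 0.956).

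Ccl9 (ENSMUSG00000019122), a ligand of Ccr1 made by myeloid cells and osteoclasts, showed the widest gap between wild-type library 1 and Tnc-/- among the abundant members. It had 83.6, 34.5 and 39.8 CPM in wild-type libraries 1 to 3, against 57.8, 64.1, 58.6 and 56.65 CPM in Tnc-/- libraries 1 to 4. The Tnc-/- libraries sat close together, with wild-type library 1 above all of them and wild-type libraries 2 and 3 below all of them. The log2 fold change over all libraries was 0.17 with a 95% interval of -0.46 to 0.81 (edgeR, adjusted p = 0.676).

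The direction of Ccl9 turned with the wild-type libraries. Without wild-type library 1 it was higher in Tnc-/- (0.77; edgeR, adjusted p = 3.8e-04). With wild-type library 1 alone the log2 fold change was -0.50 (adjusted p = 0.0735), and with the background covariate Ccl9 was lower in Tnc-/- (-0.85; adjusted p = 0.047). It was the 1 member called lower in that fit. All 8 macrophage and monocyte markers were tested, and together they reached 2998, 1605 and 1564 CPM in the wild-type libraries against 2411 to 2861 CPM in Tnc-/-; in this sum, most of which was Lyz2 (2295, 1157 and 1134 CPM against 1810 to 2150 CPM), wild-type library 1 lay above and libraries 2 and 3 below all of Tnc-/-. Other markers of the list differed from this: Cd14 (18.0, 18.5 and 13.7 CPM against 21.5 to 28.9 CPM) and Ly6c2 (106, 60.7 and 56.7 CPM against 116 to 202 CPM) were higher in Tnc-/- than in every wild-type library and were called by edgeR, while Adgre1 had 85.4, 62.5 and 54.7 CPM against 49.0 to 63.6 CPM. With all libraries edgeR called 2 of this list, both higher, beside 10.3% of all genes. Limma voom called 0, beside 5.47%, and edgeR 0 with the background covariate, beside 2.24%. Without wild-type library 1, 6 were called, all higher, beside 57.3% of the 17791 genes (29.6% higher). The 4 osteoclast markers summed to 986 to 1367 CPM in wild type and 988 to 1253 CPM in Tnc-/-, with Acp5, which also lies inside another gene, at 0 in all libraries. The part of either cell type in Ccl9 was not tested.

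Ccl5 (ENSMUSG00000035042), which attracts T cells and macrophages, followed a like pattern. It had 8.32, 1.86 and 2.73 CPM in wild-type libraries 1 to 3, from 155, 28 and 45 counts, and 10.2, 7.58, 7.45 and 6.28 CPM in Tnc-/- libraries 1 to 4. Wild-type library 1 lay within the range of Tnc-/- and libraries 2 and 3 below it. For Ccl5 the log2 fold change was 0.87 with a 95% interval of -0.36 to 2.10 (edgeR, adjusted p = 0.255). Without wild-type library 1 it was 1.86 (adjusted p = 7.9e-04), with wild-type library 1 alone -0.081 (adjusted p = 0.898), and with the background covariate -0.62 (adjusted p = 0.534). The 8 markers of T and NK cells, all tested, went different ways. Nkg7, a protein of cytotoxic granules, had 15.3, 7.38 and 12.1 CPM in the wild-type libraries against 14.02 to 25.2 CPM in Tnc-/-, so that, as for Ccl5, only wild-type library 1 lay within the range of Tnc-/-. Cd3e, a part of the T cell receptor complex, had 0.59, 9.37 and 5.29 CPM against 0.523 to 1.18 CPM, high in the wild-type libraries with the high smell receptor sums. It was the 1 marker of the list called, lower in Tnc-/- (-2.52, edgeR, adjusted p = 0.0461), beside 18.7% of all genes called lower. Limma voom called 0, beside 5.47%, and edgeR 0 with the background covariate, beside 2.24%. Without wild-type library 1, 3 were called, 1 higher and 2 lower, beside 29.6 and 27.6% of the 17791 genes. The whole list summed to 34.99, 46.9 and 45.2 CPM against 33.5 to 53.5 CPM, and its part in Ccl5 was not tested.

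**Figure D3:**
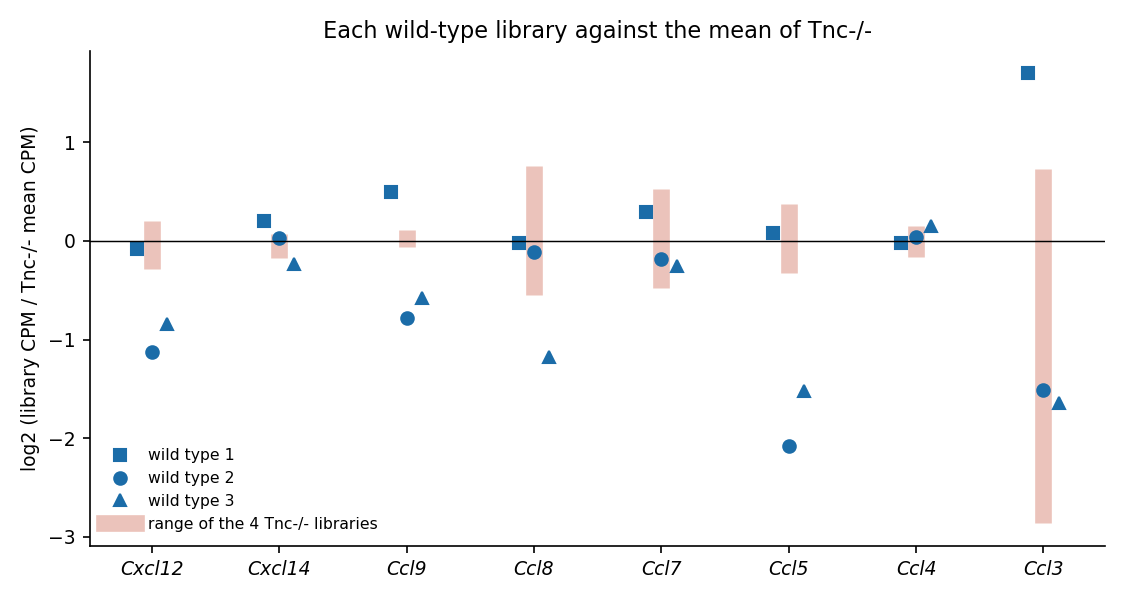
Log2 ratio of each wild-type library (blue symbols) to the mean of Tnc-/- (horizontal line at 0) for the 8 comparable chemokine genes; red bars span the 4 Tnc-/- libraries. For Cxcl12, Ccl9 and Ccl5 wild-type libraries 2 and 3 lay at -0.575 or lower, while wild-type library 1 lay between -0.0825 and 0.496.

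Ccl7 and Ccl8 sit beside Ccl2 on chromosome 11, and neither passed the threshold. Ccl7 (ENSMUSG00000035373), a monocyte attractant that shares Ccr2 with Ccl2, had 10.95, 7.84 and 7.47 CPM in wild-type libraries 1 to 3, against 6.40, 7.69, 12.9 and 8.74 CPM in Tnc-/- libraries 1 to 4. All 3 wild-type values lay within the range of Tnc-/-. The log2 fold change was 0.026 with a 95% interval of -0.74 to 0.79 (edgeR, adjusted p = 0.963). Tnc-/- library 3, the highest for Ccl7, was also the highest for Ccl2.

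Ccl8 (ENSMUSG00000009185), which in the mouse acts through Ccr8, had 13.3, 12.4 and 5.95 CPM in wild-type libraries 1 to 3, against 9.91, 11.9, 9.18 and 22.9 CPM in Tnc-/- libraries 1 to 4. Tnc-/- library 4 was the highest of all 7, and without it the log2 fold change moved from 0.35 to -0.036 (edgeR, adjusted p = 0.556 and 0.955). The 95% interval over all libraries was -0.59 to 1.28. Its receptor Ccr8 had 21 counts or fewer in every library and did not pass the filter.

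Ccl3 and Ccl4, neighbours on chromosome 11 that act on macrophages and T cells, were close to the limit of detection. Ccl3 (ENSMUSG00000000982) had 46, 4 and 4 counts in wild-type libraries 1 to 3 and 34, 18, 12 and 2 counts in Tnc-/- libraries 1 to 4, or 0.105 to 2.47 CPM. An exact 95% Poisson interval, which covers counting error only, is 1.09 to 10.2 for 4 counts and 33.7 to 61.4 for 46, so wild-type library 1 stood above the other wild-type libraries beyond counting error. For Ccl3 the log2 fold change was -0.39 with a 95% interval of -2.72 to 1.95 (edgeR, adjusted p = 0.802). Without wild-type library 1 it was 1.66 (adjusted p = 0.166).

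Ccl4 (ENSMUSG00000018930) was even across the libraries, with 19, 16 and 19 counts in wild type and 25, 18, 19 and 22 in Tnc-/-, or 0.925 to 1.15 CPM in all 7. The Poisson interval of the lowest of these counts is 9.15 to 26.0 and holds the other 6. The log2 fold change was -0.060 with a 95% interval of -1.23 to 1.11 (edgeR, adjusted p = 0.942), an interval that includes 2-fold changes in either direction. With at least 10 counts in every library its SE was 0.334, against 0.514 here.

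The count that the smell receptor genes would give per kb of gene span was set beside each member. At that rate, background amounted to 55.1 and 42.6% of the Ccl3 counts in wild-type libraries 2 and 3, to 19.1 and 12.5% for Ccl4 and to 24.7 and 11.9% for Ccl5. For Ccl7, Ccl8, Ccl9, Cxcl12 and Cxcl14 it was at most 2.24% in any library.

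**Figure D4:**
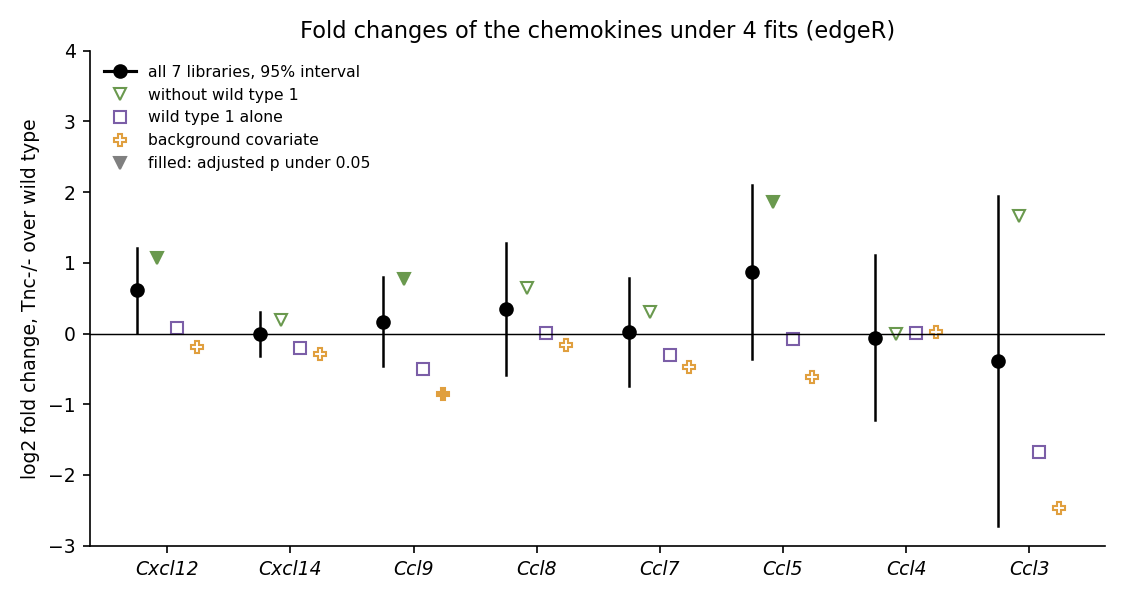
Log2 fold change of the 8 comparable genes, Tnc-/- over wild type (vertical axis), from edgeR. Black circles with 95% intervals use all 7 libraries; coloured symbols leave out wild-type library 1, use wild-type library 1 alone, or add the background covariate, and are filled where the adjusted p was under 0.05. Cxcl12, Ccl9 and Ccl5 were above 0 and filled without wild-type library 1, at 1.07, 0.77 and 1.86, and nearer to or below 0 with it alone.

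Levels of different genes were compared per kb of exon (exon lengths of GENCODE M21); whether the deposited counts cover exons alone or whole gene spans is not given in the sources used here. Since 99.1% or more of the genes nested without shared exon bases were at 0 in either genotype, the order is given on both scales. In Tnc-/-, Cxcl12 was highest at 64.0 ± 10.5 CPM per kb (SD, n = 4), followed by Cxcl14 at 40.0 ± 3.02, Ccl8 at 26.3 ± 12.5, Ccl9 at 19.5 ± 1.08, Ccl7 at 11.1 ± 3.50, Ccl5 at 8.20 ± 1.71, Ccl2 at 7.17 ± 3.81, Ccl4 at 1.57 ± 0.145 and Ccl3 at 0.991 ± 0.650 CPM per kb. The libraries of Cxcl12 and Cxcl14, of Ccl9 and Ccl7, and of Ccl2 and Ccl4 did not overlap; all other neighbours in this order did. In wild type the 8 comparable genes had the same order, from Cxcl12 at 41.8 ± 16.5 CPM per kb to Ccl3 at 1.30 ± 1.67 CPM per kb (SD, n = 3), and there Cxcl12 and Cxcl14 overlapped. Per kb of gene span, a scale added after the data were seen, Cxcl12 was again highest in Tnc-/- at 40.8 ± 6.70 CPM per kb of span (SD, n = 4), but other places changed. Ccl9 (10.4 ± 0.574) then stood above Cxcl14 (9.24 ± 0.697) and Ccl8 (8.33 ± 3.94), Ccl2 (4.33 ± 2.30) above Ccl5 (1.66 ± 0.347), and Ccl3 (0.502 ± 0.329) above Ccl4 (0.493 ± 0.0455).

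None of the 10 receptors of the set was called between the genotypes. Of these, 8 were tested; 0 were called by edgeR, DESeq2 or limma voom and 0 had an unadjusted p under 0.05, with a median log2 fold change of 0.16 (29.0% of all genes were called by edgeR). Leaving out wild-type library 1, 4 of these receptors were called, all higher, against 57.3% of the 17791 genes (29.6% higher). The most abundant was Ackr3, which removes Cxcl12, with a wild-type mean of 102 ± 2.82 CPM (SD, n = 3) and a Tnc-/- mean of 92.0 ± 13.4 CPM (SD, n = 4). Its log2 fold change was -0.15. Cxcr4, the other receptor of Cxcl12 in the set, had 69.9, 30.0 and 47.9 CPM in the wild-type libraries against 53.9 to 91.1 CPM in Tnc-/- (log2 fold change 0.51, 95% interval -0.17 to 1.19, edgeR, adjusted p = 0.226). Ccr2, the monocyte receptor of Ccl2 and Ccl7, had 76.0, 33.6 and 52.7 CPM against 46.6 to 65.3 CPM (0.0076, -0.57 to 0.58; adjusted p = 0.987). Ccr1, shared by Ccl3, Ccl5, Ccl7 and Ccl9, had 14.8 to 21.5 CPM and 19.4 to 24.9 CPM.

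Among the other 28 chemokine ligands 17 were tested and 1 was called, higher in Tnc-/-, beside 10.3% of all genes, with a median log2 fold change of 0.38. DESeq2 called 3, beside 35.1% of all genes, and without wild-type library 1 edgeR called 3 of the 17 higher and 1 lower, beside 29.6 and 27.6% of the 17791 genes. The 1 called with all libraries was Pf4, a platelet chemokine, at 116, 85.3 and 88.6 CPM in wild type and 215, 136, 161 and 174 CPM in Tnc-/- (log2 fold change 0.83, SE 0.19; edgeR, adjusted p = 0.0138), with no overlap between the groups. The call was lost without wild-type library 2 or 3 (0.752 and 0.775, edgeR, adjusted p = 0.0519 and 0.066). It was also lost among genes spanning at most 10 kb (0.54, adjusted p = 0.0569) and with the background covariate (0.45, adjusted p = 0.425). With wild-type library 1 alone the log2 fold change of Pf4 was 0.56. Ppbp, the second platelet chemokine and the most abundant of this list, had 79.5 to 223 CPM and 212 to 379 CPM (1.03; adjusted p = 0.0508). The megakaryocyte and platelet markers, which include both, came to 453, 212 and 287 CPM in the wild-type libraries against 486 to 858 CPM in Tnc-/-, and the erythroid markers given with Cxcl12 were likewise higher in Tnc-/-; the part of either in these values was not tested. Of the 28 ligands 6 had 0 counts in all libraries; 5 of these, Cxcl10 and Ccl19 among them, lie inside another gene of all files.

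Of the other 13 receptors 9 were tested, and 1 was called higher and 2 lower, beside 10.3 and 18.7% of all genes. Without wild-type library 1, 3 of the 9 were called higher and 3 lower, beside 29.6 and 27.6% of the 17791 genes. Cxcr2, the neutrophil receptor, was at 9.04 to 20.6 CPM in wild type and 22.7 to 44.1 CPM in Tnc-/- (log2 fold change 1.16, SE 0.34; edgeR, adjusted p = 0.0348). The 8 neutrophil markers came to 5379, 2615 and 2879 CPM in the wild-type libraries against 6050 to 10220 CPM in Tnc-/-. Of these, edgeR called 7 higher, beside 10.3% of all genes. Limma voom called 2, beside 5.47%, and edgeR 0 with the background covariate, beside 2.24%. Without wild-type library 1 all 8 were called higher, beside 29.6% of the 17791 genes. The part of neutrophils in Cxcr2 was not tested. Cx3cr1, a receptor of monocytes and resident macrophages, was lower in all Tnc-/- libraries, at 27.5 to 35.5 CPM against 15.7 to 22.6 CPM (-0.79, SE 0.18; adjusted p = 0.0147). Ccr4, a chemokine receptor of T cells, had 1.34, 34.2 and 24.7 CPM in wild-type libraries 1 to 3, against at most 0.333 CPM in Tnc-/-. It was called lower (-6.36, SE 0.98, edgeR, adjusted p = 0.0067). Its values were high in the wild-type libraries with the high smell receptor sums. With wild-type library 1 alone none of the 3 passed (Cxcr2 0.61, adjusted p = 0.294; Cx3cr1 -0.60, 0.131; Ccr4 -2.47, 0.116), nor did they with the background covariate (0.35, 0.736; -0.47, 0.413; -1.09, 0.298). Cxcr2 also missed the threshold without wild-type library 2 or 3 (0.932 and 1.09, edgeR, adjusted p = 0.0998 and 0.128). The same held without Tnc-/- library 1, 3 or 4 (0.938, 1.1 and 1.28, adjusted p = 0.101, 0.0933 and 0.0531). Cx3cr1 missed it without wild-type library 3 (-0.789, adjusted p = 0.0535) or Tnc-/- library 3 (-0.73, adjusted p = 0.0548).

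Of the 12 genes of the NF-kB chain, which drives many inducible chemokines, 0 were called by edgeR. Over all genes edgeR called 29.0%. The count was 4 at an unadjusted p under 0.05, beside 42.3% of all genes, and DESeq2 called 1 and limma voom 0, beside 35.1 and 5.47%. The count was 7 of the 12 without wild-type library 1, all higher, against 57.3% of the 17791 genes (29.6% higher). With all libraries the log2 fold change was above 0 in 11 of the 12, beside 49.9% of all genes, with a median of 0.29, beside -9.0e-04. Nfkb1, the most abundant, had 79.9 to 98.3 CPM in wild type and 98.7 to 117 CPM in Tnc-/-, without overlap (0.32, SE 0.13; edgeR, adjusted p = 0.0888).

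Likeness of pattern over the 7 libraries was described by Pearson's r of log2 (CPM + 0.5) among the members and these lists. All points share the libraries and the split between wild-type library 1 and libraries 2 and 3. Cxcl12 was most like Ppbp (r = 0.980, n = 7), Ccl5 most like Nfkbib (0.959), Ccl9 most like Ccl5 (0.889), and Cxcl14 most like Relb (0.900). Ccl7 was most like Cxcl5 (0.761), Ccl8 most like Relb (0.783), Ccl4 most like Ackr3 (0.802) and Ccl3 most like Ccr2 (0.794).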

How the data were processed

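The values the authors deposited are unnormalized counts of reads per gene, in a file for each library. Per the submitters' processing notes FastQC 0.11.9, HISAT2 2.2.1, HTSeq 2.0.2 and DESeq2 1.38.3 were used with GRCm39; the annotation and the counting settings are not given in the sources used here. Per the labels' protocols, poly(A) RNA was captured from total RNA and a NEBNext Ultra RNA kit was used; since nothing states that strand was used, reads of overlapping genes on opposite strands cannot be separated. The wild-type files list 56980 identifiers and the Tnc-/- files 56941, with 56854 in common; 17791 of these passed the filter on low counts and were tested. The Tnc-/- files also have 5 rows that name no gene, with 30.1 to 32.7% of listed reads; these stayed out of totals and tests. No value column was left unmapped (0 columns).

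Genotypes were compared with edgeR 4.0.16 in R 4.3.3 (filterByExpr, TMM, robust quasi-likelihood F test, genotype as the 1 term). P-values were adjusted by Benjamini-Hochberg over all tested genes, with a threshold of 0.05. Standard errors are the log2 fold change over the square root of F, and 95% intervals use the test's degrees of freedom. Gene spans, exon lengths and overlaps between genes were computed from the coordinates of GENCODE M21 (GRCm38), none of which are printed; promoter sequences came from RefSeq. The steps were tested on simulated data in which all libraries shared the same gene means apart from planted changes. The background and the split among the wild-type libraries were not simulated, so that run does not bear on them. Alternatives were DESeq2 1.42.0 (also with Bonferroni adjustment, which the series' design text names), limma 3.58.1 voom, other scalings and filters, genes spanning at most 10 kb, a background covariate, a replicate block and leaving out each library. Wild-type library 1 alone was added after the data were seen. Chi-square per degree of freedom between libraries of a group was 20.3 to 123, so none looked deposited again. The members, lists and rules (the members, their receptors, and list genes past the threshold or most abundant) were chosen with earlier results of these data known. A receptor of the lists is counted but not reported by name here.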

Additional observations from a re-analysis of the deposited data

Results flagged for a closer look

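Dixon's test (critical value 0.829) was run on 29 values within Tnc-/-; for 3 of them 1 library stood far from the rest, where chance gives about 1 in 20. Cxcl14 was low in Tnc-/- library 1, at 64.9 CPM against 75.0 to 76.7 CPM, a gap of 0.851 of the range. Ccr8 was high in library 3, at 0.616 CPM from 11 counts, with a gap of 0.91. The erythroid markers summed to 24390 CPM in library 1, against 12280 to 14330 CPM in the other Tnc-/- libraries and 4334 to 8418 CPM in wild type, with a gap of 0.831. Reads assigned to more than 1 gene, which enter no comparison, made up 11.5, 11.6, 11.4 and 11.6% of the reads listed for Tnc-/- libraries 1 to 4; the wild-type files hold no such row.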

How the results depend on the processing

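The number of genes called (5159) was 1661 with DESeq2 and Bonferroni adjustment, 973 with limma voom, 629 among genes spanning at most 10 kb, 399 with the background covariate and 825 with wild-type library 1 alone. Leaving out 1 library gave 2229 (without wild-type library 3) to 14113 (without wild-type library 1). The median over all tested genes was at -0.24 (log2) with library totals, -0.16 with no filter and -0.16 without wild-type library 1. Library totals gave 951 genes higher and 4541 lower and limma voom 707 and 266, against 1830 and 3329. Members called higher (1) numbered 0 with at least 10 counts in every library, where Ccl2 was not tested, and 0 with the background covariate, where 1 was called lower; leaving out 1 library gave 1 to 4 higher (4 without wild-type library 1: Ccl2, Ccl5, Ccl9 and Cxcl12, where 24.3% of the genes of that fit were called higher) and 0 lower. The replicate numbers did not pair the samples (correlations of same-numbered deviations -0.0053, 0.102 and -0.0055); with the replicate block 1713 genes were called, and the calls of Cx3cr1 and Ccr4 were lost.

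Directions turned in the following cases; of the values that turned, only that of Ccl9 with the background covariate was past the threshold. With the background covariate the log2 fold change was -0.62 for Ccl5, -0.48 for Ccl7, -0.16 for Ccl8, -0.85 for Ccl9, -0.20 for Cxcl12 and 0.023 for Ccl4. With wild-type library 1 alone it was -0.081 for Ccl5, -0.31 for Ccl7, -0.50 for Ccl9 and 0.014 for Ccl4. Ccl7 was also at -0.0195 with DESeq2 under either adjustment, -0.067 with limma voom, -0.018 with DESeq2 size factors, -0.21 with library totals, -0.050 with at least 10 counts, -0.26 among short genes and -0.010 with the replicate block. Ccl9 was at -0.038 with library totals and -0.079 among short genes, Ccl3 at 0.71 with the replicate block, and Ccl4 at 0.022 and Cxcl14 at 0.065 with no filter. Leaving out 1 library gave -0.84 to 1.66 for Ccl3, -0.205 to 0.31 for Ccl7, -0.036 to 0.65 for Ccl8, -0.056 to 0.77 for Ccl9 (0.77, without wild-type library 1, kept its direction and was past the threshold) and -0.12 to 0.19 for Cxcl14. The cause was not tested. Ccl2 lost its call with the background covariate (adjusted p = 0.343). With DESeq2 and Bonferroni adjustment Pf4, Cxcr2 and Cx3cr1 were not called, with limma voom Cxcr2, Cx3cr1 and Ccr4 (adjusted p = 0.0932, 0.0504 and 0.234), and Cxcr2 not with library totals (0.0611) or among short genes (0.0772).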
